A study of Mus musculus with 4 samples.

Results

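Cluster 3 of the deposited clustering is a set of 325 cells among 3002 myeloid cells of the atherosclerotic mouse aorta. Its members were taken as the cells to which the authors gave cluster number 3, and they held 335004 UMIs (unique molecular identifiers, which count captured transcripts) of the 15893384 UMIs in the table. The cells came from 1 group: live aortic CD45+ leukocytes of Apoe-/- mice fed a western diet for 13 weeks, 6 mice in all. Every mouse lacked apolipoprotein E, a carrier protein without which remnant lipoproteins build up in the blood, so no plaque-free or wild-type aorta stands beside these cells. The titles name 2 biological replicates with 2 libraries each (1-1 and 1-2, 2-1 and 2-2), and the sources used here do not say how the mice were divided over them. No cell barcode was shared between libraries (0 of 3002 cells). The library names in the counts and in the metadata matched, which is no independent check of the labels.

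Resident macrophages of the artery wall lie mainly in the adventitia and are known for the lectin-like hyaluronan receptor Lyve1, the mannose receptor Mrc1, the folate receptor Folr2 and the scavenger receptor Cd163. They take up dying cells with the help of bridging proteins such as Gas6, which joins exposed phosphatidylserine to the receptor Mertk. Malat1 is a long RNA that stays in the nucleus, whereas transcripts of ribosomal protein genes are stable and abundant in the cytoplasm. Immediate-early genes such as Fos and Jun give short-lived transcripts that appear within minutes of a stimulus.

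The cells of cluster 3 carried few UMIs. The medians of libraries 1-1, 1-2, 2-1 and 2-2 were 846, 855, 833 and 817 UMIs, and the smallest cell held 502. In cluster 0, the larger cluster with the same resident markers (635 cells), the medians were 7223, 3933, 7285 and 4156 UMIs in the same order. Depth in cluster 0 followed the library, and in cluster 3 it hardly varied. No cell of any cluster held fewer than 502 UMIs, so cluster 3 lay near the lower limit of the cells kept. The part of this limit in the small spread of its medians was not tested. The median of cluster 3 was 12.7% to 19.9% of the median over all cells of the same library. Median genes detected per cell ran from 413 to 425.5 in cluster 3 and from 1502 to 2268 in cluster 0. Mitochondrial transcripts took a median of 5.45% to 6.63% of the UMIs of a cell in cluster 3, and of 3.28% to 4.10% in cluster 0, with no overlap between the libraries of both. Cluster 8 (105 cells), used here as the other shallow macrophage cluster, had medians of 871 to 1092 UMIs and 3.27% to 3.94% mitochondrial UMIs. Cluster 3 made up 13.6% of the cells of library 1-1, 7.23% of library 1-2, 16.9% of library 2-1 and 11.3% of library 2-2 (12.2% ± 4.07, SD, n = 4 libraries).

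**Figure D1:**
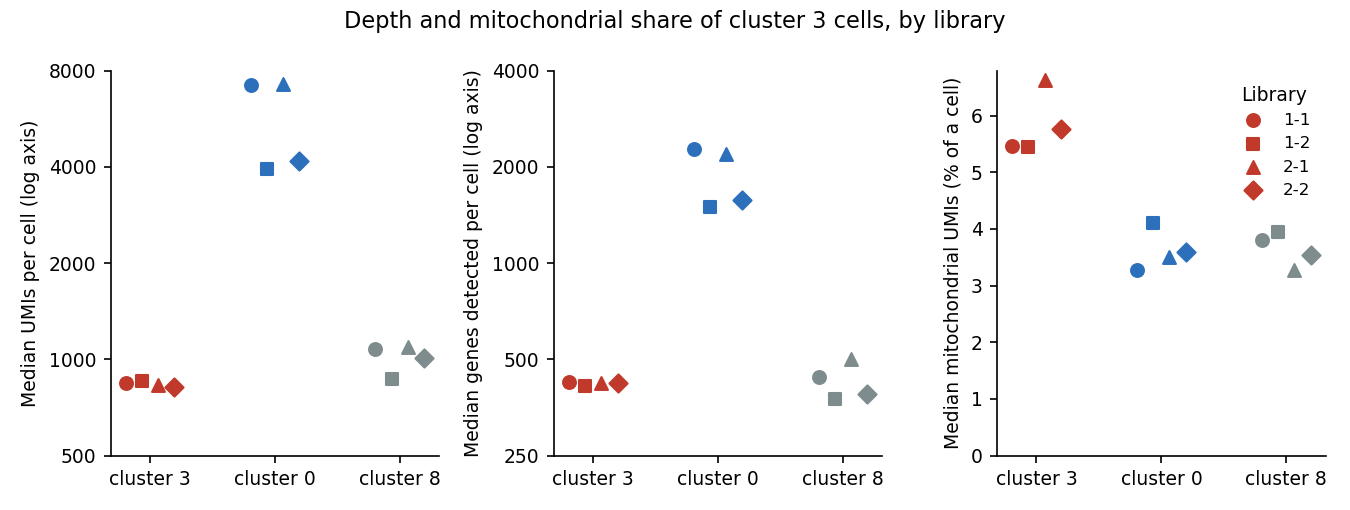
Median UMIs per cell, median genes per cell (both log axes) and median mitochondrial share of a cell's UMIs (linear axis from 0) in clusters 3, 0 and 8, with 1 symbol for each of the 4 libraries. Cluster 3 sits between 817 and 855 UMIs in all 4 libraries, while cluster 0 ranges from 3933 to 7285, and the mitochondrial share is highest in cluster 3.

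Cells of cluster 3 carried the resident markers given for it. Among the 10 genes furthest above the mean of the 5 other macrophage clusters (0, 1, 2, 8 and 13), 4 were resident markers: Ccl8 (log2 difference 3.60), Cd209f (3.16), Folr2 (2.92) and Gas6 (2.92). The other 6 were the chemokine gene Ccl17, which led the list at 4.81, the haemoglobin genes Hbb-bt, Hbb-bs and Hba-a1, and the cell cycle genes Ube2c and Birc5. These genes took part in the clustering, so their height is a description and no test. The 18 resident markers together took 1.36% of the UMIs in replicate 1 and 1.17% in replicate 2 of cluster 3, beside 1.16% and 1.29% in cluster 0. In cluster 8 they took 0.0437% and 0.0628%. The share of cluster 3 lay above that of cluster 0 in replicate 1 and below it in replicate 2. Ccl8, a marker given for this cluster, counts in that share, at 3695 and 2093 CPM beside 965 and 784 CPM in cluster 0. Over the 17 resident markers measured against cluster 0, the median log2 difference was -0.53 (all genes -0.16).

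Ccl8 encodes a chemokine that attracts monocytes and lymphocytes, and lies on chromosome 11 from 82115185 to 82116799 (mm10, plus strand, protein-coding, ENSMUSG00000009185). Its level in cluster 3 was 5225 CPM (counts per 1000000 counts) in library 1-1, 3134 in 1-2, 1942 in 2-1 and 2239 in 2-2. In cluster 0 it was 645, 1044, 999 and 584 CPM. Every library of cluster 3 lay above every library of cluster 0. The fitted log2 difference was 1.81 ± 0.26 (SE of the edgeR fit). At full depth Ccl8 was detected in 37.2% of cluster 3 cells and 42.7% of cluster 0 cells (median depths 834 and 4404 UMIs), and 1 cell of cluster 3 held 60 of its 898 UMIs. With every cell thinned to 500 UMIs it was found in 30.5% of cluster 3 cells (95% exact interval 25.5% to 35.8%) and in 17.5% of cluster 0 cells (14.6% to 20.7%). Cells of clusters 8, 4 and 7 gave 3.81%, 1.81% and 4.80% at the same depth. Free RNA was not measured, and whether these shares come from it or from expression was not tested.

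Gas6, the bridging protein of dying-cell uptake (chromosome 8, 13465374 to 13494490, minus strand), reached 635 and 702 CPM in the replicates of cluster 3 and 454 and 612 CPM in cluster 0, a fitted log2 difference of 0.46 ± 0.21. It was found in 40.0% and 80.9% of the cells of clusters 3 and 0 at full depth. At 500 UMIs these shares were 26.2% and 24.6%, with overlapping intervals (21.5% to 31.3% and 21.3% to 28.1%). C4b, a complement component (chromosome 17, 34728380 to 34743882, minus strand), stood at 309 and 368 CPM in cluster 3 and 531 and 561 CPM in cluster 0, a log2 difference of -0.55 ± 0.25. Cd209f, a C-type lectin (chromosome 8, 4102787 to 4105835, minus strand), stood at 187 and 160 CPM against 115 and 211 CPM. Its near-identical neighbours in the Cd209 family can share reads, so its level is uncertain. At 500 UMIs 163 cells of cluster 3 (50.2%) showed none of the 4 markers, 96 showed 1, 55 showed 2 and 11 showed 3 or 4. Cluster 0 had 49.1% of cells with none and cluster 8 had 94.3%. The share of cells with none was thus close in clusters 3 and 0 at equal depth, and far from that of cluster 8. Some single markers were found in unlike shares of the cells of clusters 3 and 0 at 500 UMIs. C4b was found in 13.2% and 23.5% of their cells, and Lyve1 in 7.38% and 24.1%. Cd163 was found in 11.7% and 24.7%, and Mrc1 in 31.1% and 49.0%. The intervals of these markers did not overlap. The shares of Ccl8 lay in the other direction, as given above. Intervals overlapped for Gas6, Cd209f, Folr2 and Pf4. All these intervals cover counting error over cells pooled from the libraries, and cells are not replicates. The markers also took part in the clustering, so the shares are a description and no test.

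**Figure D2:**
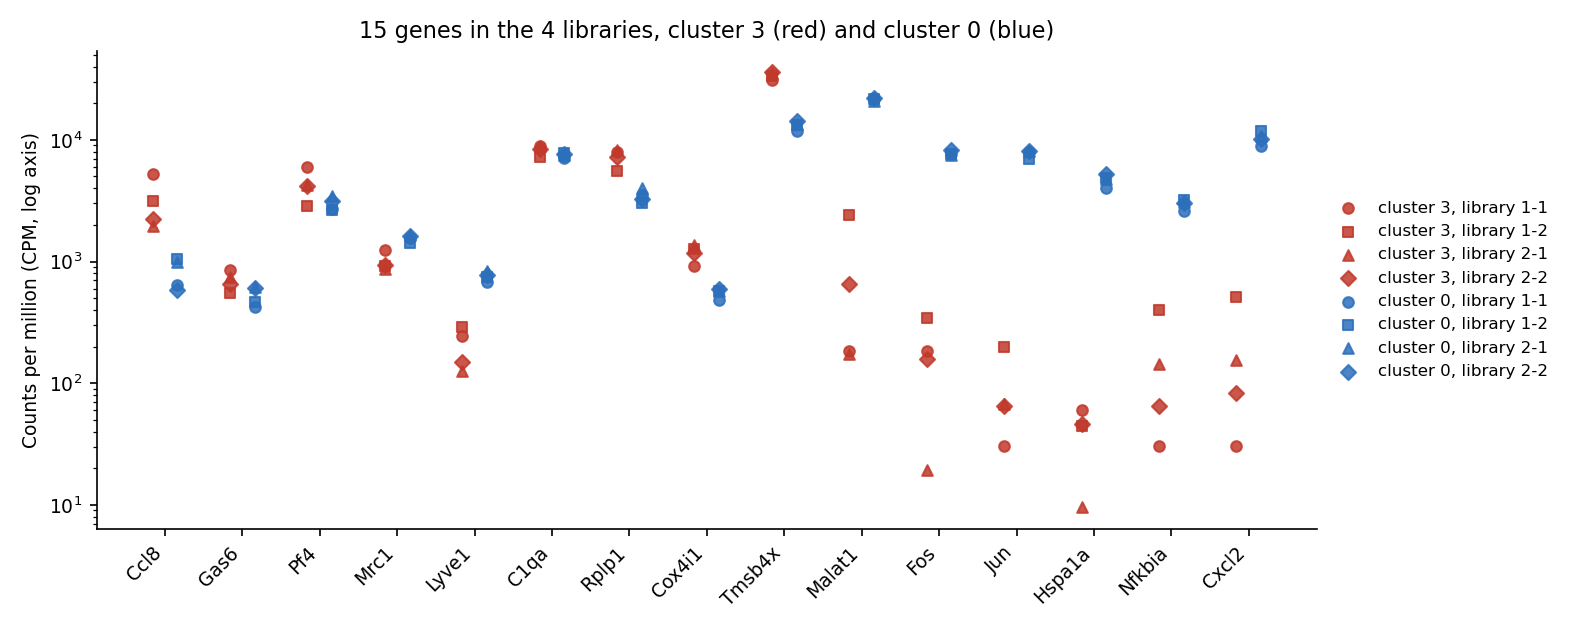
Level of 15 genes in CPM (log axis), with 1 symbol per library, in cluster 3 (red) and cluster 0 (blue). Gas6, Pf4 and C1qa lie close together in both clusters, and Mrc1 is somewhat lower in cluster 3 in every library. Ccl8 is higher and Lyve1 lower in cluster 3, and Rplp1, Cox4i1 and Tmsb4x are higher in cluster 3 in all 4 libraries. The 6 genes from Malat1 to Cxcl2 lie far below cluster 0 in every library, with a wide spread in cluster 3.

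The direct comparison asked which genes separate the shallow resident-like cells from the deeper ones. Counts were summed for each cluster and biological replicate, and a gene was counted as apart when it differed at least 2-fold in the same direction in both replicates, among genes with a mean of at least 50 CPM in either cluster. Of 3008 such genes, 157 were higher in cluster 3 (5.22%) and 616 were lower (20.5%). The clusters were built from these genes, so the counts describe them and no p-value is given. The median log2 difference over all 3008 genes was -0.16, and it was -0.21 with scaling by the total count and -0.29 with the size factors of DESeq2. Under those scalings 122 genes were higher and 645 lower, and 70 higher and 703 lower. The count of higher genes was 69 without library 1-2, 86 without 2-1, 98 without 2-2, 41 among cells of at least 1000 UMIs, and 11 where all 4 libraries had to differ 2-fold, so it is read by group below. The count of lower genes was 515 where all 4 libraries had to differ. Median depth and mitochondrial share moved with every difference below, and their part in it was not tested, except that equal depth is given where thinned values are printed.

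All 18 measured immediate-early genes were lower in cluster 3, with a median log2 difference of -4.82 (all genes -0.16). Over all 3008 genes 20.5% were lower. Some of the 18, though none of Fos, Jun, Junb and Zfp36, reached the minimum of 50 CPM only through cluster 0. The list took 0.272% and 0.141% of the UMIs in the replicates of cluster 3 against 5.92% and 6.55% in cluster 0. Fos, a subunit of the AP-1 transcription factor (chromosome 12, 85473890 to 85477273, plus strand), read 182, 345, 19.2 and 157 CPM in libraries 1-1, 1-2, 2-1 and 2-2 of cluster 3 and 7556 to 8201 CPM in cluster 0 (log2 difference -5.32 ± 0.32). Jun, its partner, read 155 and 66.0 CPM in the replicates against 7174 and 8071 CPM (-6.12 ± 0.32). Junb, another AP-1 subunit, was lower by a log2 difference of -4.77 ± 0.23, and Zfp36, which drives decay of cytokine transcripts, by -5.49 ± 0.22. No library of cluster 3 overlapped cluster 0 for any of the 4. At 500 UMIs a Fos transcript was found in 5.23% of cluster 3 cells and 86.9% of cluster 0 cells (8.92% and 98.7% at full depth). The 18 genes were all lower under each of the 14 other settings in which they were counted (17 genes at a minimum of 100 CPM).

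The nuclear RNAs were also low. Malat1 (chromosome 19, 5795690 to 5802672, minus strand) read 182, 2412, 173 and 657 CPM in the 4 libraries of cluster 3 and 20840 to 22099 CPM in cluster 0, a log2 difference of -4.27 ± 0.31. Neat1, the scaffold of paraspeckles, was found with 8 UMIs in cluster 3 (48.8 and 9.43 CPM) against 1563 and 1456 CPM. Kcnq1ot1, an imprinted nuclear transcript, had 0 counts in cluster 3 and was at least 10.1-fold lower than in cluster 0, against a floor of 3 counts over the cluster.

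Stress and inflammatory genes followed. Over all 3008 genes measured, 20.5% were lower. Of 12 heat shock genes 8 were lower and none was higher, with a median of -2.28. The inducible chaperone Hspa1a stood at 48.8 and 28.3 CPM in cluster 3 against 4714 and 5014 CPM (-7.02 ± 0.32), although its near-identical copy Hspa1b can share its reads. Hsp90aa1, the inducible form of the HSP90 chaperone, differed by -2.46 ± 0.20, whereas its constitutive relative Hsp90ab1 did not differ 2-fold (-0.13 ± 0.16). Of 9 genes of NF-kappaB feedback and cytokines 7 were lower, with a median of -4.24: the inhibitor gene Nfkbia stood at 301 and 104 CPM against 3097 and 3036 CPM (-3.92 ± 0.25). Apart from Nfkbia, those lower had 1 to 11 UMIs in cluster 3. They reached the minimum of 50 CPM only through cluster 0, so the filter itself favoured that direction. The same held for some heat shock genes and inflammatory markers, Hspa1a and Tnf among them. Of the 10 inflammatory macrophage markers 9 were lower, among them the neutrophil chemokine Cxcl2 (382 and 118 CPM against 11273 and 10474 CPM) and the monocyte chemokine Ccl2 (244 and 123 CPM against 1792 and 1955 CPM). Tnf had 1 UMI in cluster 3. Il1b, the gene of interleukin-1 beta, was the exception: 423 and 104 CPM in cluster 3 against 381 and 99.4 CPM in cluster 0, a log2 difference of 0.21 ± 0.42. Of 14 chemokine ligands 7 were lower and Ccl8 alone was higher, a count that fell to 0 without library 2-2.

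Identity genes of macrophages kept similar levels. The 12 pan-macrophage markers took 3.81% and 3.87% of UMIs in cluster 3 and 3.82% and 3.87% in cluster 0. The complement genes C1qa (0.24 ± 0.23) and C1qb (0.37 ± 0.20) and the lysozyme gene Lyz2 (0.28 ± 0.17) did not reach 2-fold. Aif1, a calcium-binding protein of the actin cytoskeleton, was higher (781 and 820 CPM against 273 and 361 CPM). The endotoxin co-receptor gene Cd14 (-2.47 ± 0.24) and Mertk (-3.24 ± 0.55) were lower. Mertk had only 3 UMIs in cluster 3, so the size of its difference is uncertain (fitted -8.92 to -2.65 over the settings). Within the 17 resident markers measured, Ccl8 was higher, Lyve1 (277 and 137 CPM against 737 and 805 CPM) and the transcription factor gene Maf (366 and 321 CPM against 755 and 724 CPM) were lower, and the median was -0.53. Aif1, Cd14, Mertk, Lyve1 and Maf were named after their values were seen. None of the 11 C-type lectins, 6 MHC class II genes or 19 lysosome genes was 2-fold apart, with medians of 0.25, 0.59 and -0.16. Hmox1, which breaks down haem, was lower (236 and 80.1 CPM against 1091 and 1350 CPM), as was the cholesterol exporter gene Abca1 (-1.79 ± 0.24). Lgals3, a galectin of lipid-laden macrophages, stood at 895 and 712 CPM against 315 and 226 CPM, but in library 1-1 it was lower in cluster 3 (182 against 362 CPM), and without library 1-2 the log2 difference was 0.13.

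Transcripts of the translation and respiration machinery took a larger share. Cytosolic ribosomal protein genes made up 20.4% and 23.5% of the UMIs in the replicates of cluster 3 and 10.4% and 11.4% in cluster 0. Of 81 such genes measured 37 were counted as higher and none as lower, with differences between 0.73 and 1.44 and a median of 1.05. Its count ran from 0 to 38 over the alternatives, and its median from 0.30 in cells with Malat1 to 1.08 in cells without. Without library 1-2, 2 of 80 were counted as higher (median 0.83). Rplp1, an acidic protein of the ribosomal stalk, read 5513 to 8237 CPM in the 4 libraries of cluster 3 and 3013 to 4046 CPM in cluster 0, without overlap. Nuclear genes of the respiratory chain took 1.78% and 1.83% of UMIs against 0.867% and 0.939%, and 20 of 67 were counted as higher (median 1.03), or 6 of 66 without library 1-2 (median 0.79). Cox4i1, a subunit of cytochrome oxidase, stood at 1180 and 1259 CPM against 554 and 584 CPM. The 13 genes of the mitochondrial genome had a median of 0.44 and none was 2-fold apart. Of 12 actin and thymosin genes 3 were higher: Tmsb4x, which sequesters actin monomers (32608 and 35593 CPM against 12971 and 13879 CPM), its relative Tmsb10 (2.47 ± 0.23) and the actin-binding Pfn1 (1.19 ± 0.24), of which Tmsb10 and Pfn1 were named after their values were seen. Without library 1-2 none of the 12 was 2-fold higher in both replicates. Together the ribosomal, respiratory and actin lists held 60 of the 157 higher genes, and 81, 67 and 12 of the 3008 genes measured. Most of these 60 were not counted as higher without library 1-2, as given above.

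**Figure D3:**
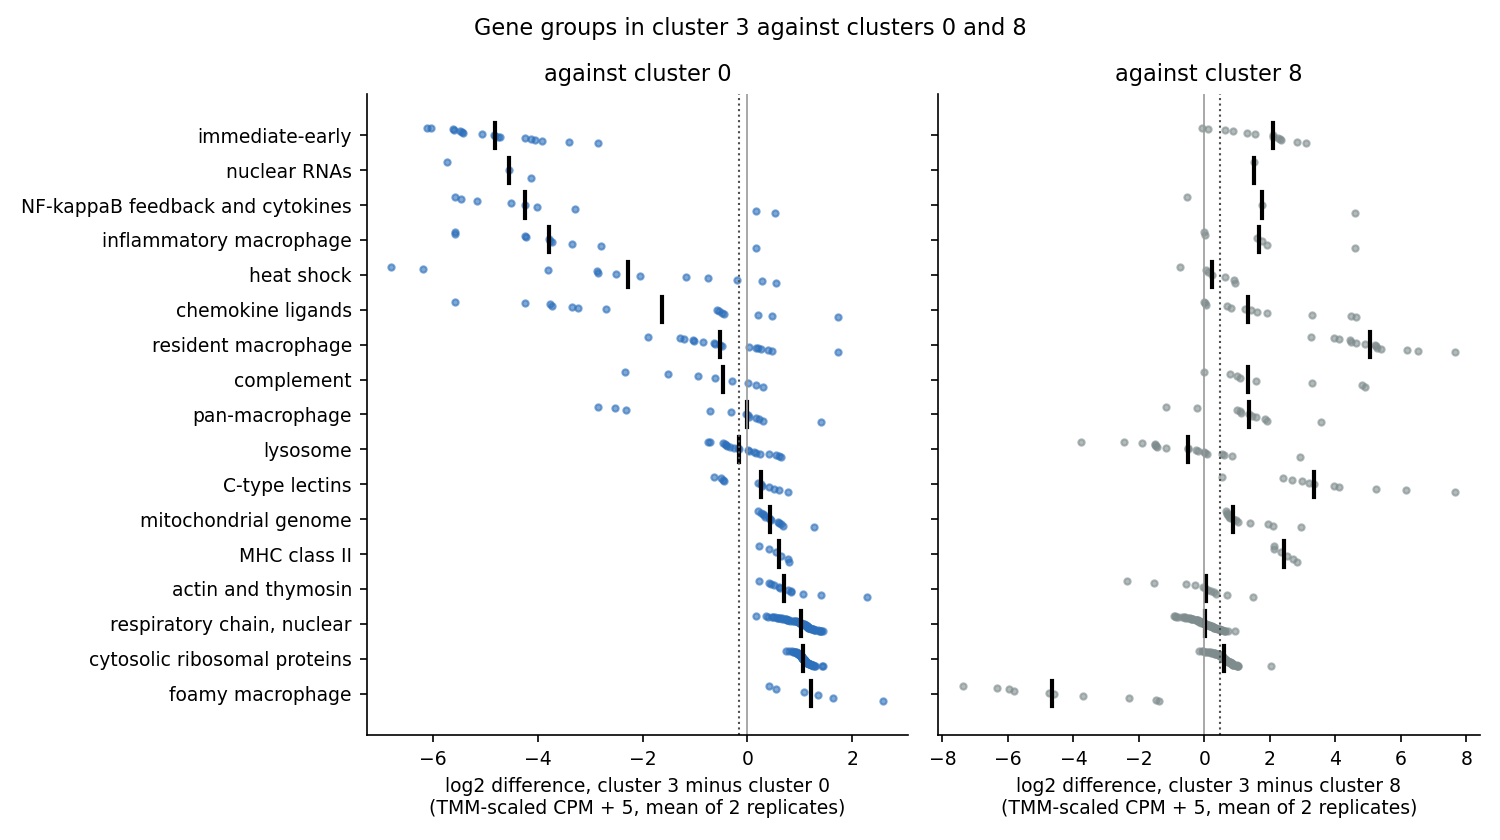
Log2 difference of each measured gene (points) in 17 gene groups, cluster 3 minus cluster 0 on the left and cluster 3 minus cluster 8 on the right, with the median of each group as a black bar, 0 as a solid line and the median of all genes as a dotted line. Immediate-early genes have a median of -4.82 against cluster 0 and 2.10 against cluster 8, resident markers -0.53 and 5.06, and foamy markers 1.21 and -4.66.

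The genes with the largest fitted difference above cluster 0 came from few cells. Ccl17, a chemokine of activated dendritic cells and macrophages, had 46 UMIs in 3 cells, with 24, 16 and 6 UMIs. Hba-a1 was higher through 1 cell of library 1-2 that held 3400 of the 3433 haemoglobin UMIs of the cluster among its 4801 UMIs, and without that cell the difference turned to -0.64. AA467197 had 18 of its 30 UMIs in 1 cell. Fabp5, a fatty acid carrier of foamy macrophages, had 63 UMIs in 21 cells, 23 of them in 1 cell, and its difference turned to -0.17 without library 1-2. Gngt2, a G protein subunit gene, had 52 UMIs in 37 cells (195 and 132 CPM against 27.02 and 24.5 CPM). The other 5 of the 10, Ube2c, Birc5, Top2a, Cks1b and Stmn1, act in the cell cycle, a shared feature seen after the ranking. Stmn1, which regulates microtubules, stood at 252 and 335 CPM against 42.6 and 33.1 CPM (3.15 ± 0.31). Without library 1-2 the log2 difference of CPM plus 5 was 1.31 for Ube2c (3.76 with it), 1.62 for Birc5 (3.00), 1.46 for Top2a (2.69), 1.35 for Cks1b (2.65) and 2.15 for Stmn1 (2.86). The 5 genes gave 184 UMIs in 50 cells, and 107 of these UMIs lay in 15 cells that held 3 or more of the genes.

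Of the 616 lower genes 19 had 0 counts in cluster 3 and 116 had 1 to 3. The 10 with the largest fitted difference were all at 0: Gm26532, Gm17056, Tnfsf9, 1810011O10Rik, Tmem88, Klf10, Mob3c, Cxcr4, Oas2 and Kcnq1ot1. Against a floor of 3 counts they were at least 10.1-fold (Kcnq1ot1) to at least 30.1-fold lower (Gm26532). Cxcr4, the receptor of the chemokine Cxcl12, was at least 13.1-fold lower.

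Markers of other cell types were scarce in cluster 3. T and NK cell and endothelial markers had 0 UMIs. Dendritic cell markers had 27 UMIs, with Flt3, Zbtb46, Clec9a and Ccr7 at 0, and monocyte markers had 75 UMIs (0.0163% and 0.0259% of all in the replicates, against 0.0162% and 0.0109% in cluster 0), with Chil3 and Vcan at 0. Smooth muscle markers had 13 UMIs and neutrophil markers 28. B cell markers had 51 UMIs, 43 of them in 1 cell. Fibroblast markers had 78 UMIs (0.0195% and 0.0255%, against 0.00737% and 0.00918% in cluster 0), with Pdgfra at 0. Dcn, a collagen-binding proteoglycan, was the 1 gene of that list counted as higher (138 and 170 CPM against 45.03 and 59.7 CPM), in 43 cells. Its part in the other differences was not tested.

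Against cluster 8, the foamy-like cluster of similar but slightly greater depth, 476 of 2440 genes were higher in cluster 3 (19.5%) and 129 were lower (5.29%). With scaling by the total count these were 336 and 186. All 14 measured resident markers were higher, with a median of 5.06 beside 0.49 over all genes: Mrc1 read 1001 and 900 CPM against 0 counts in cluster 8, and Pf4, the platelet factor 4 chemokine, 3703 and 4205 CPM against 164 and 287 CPM. Apart from Ccl8 and Pf4, these markers reached the minimum of 50 CPM only through cluster 3, so the filter itself favoured that direction. The clusters were also built from such genes, so the counts against cluster 8 are a description and no test. All 6 MHC class II genes were higher (median 2.43). All 10 foamy markers were lower (median -4.66), with Fabp5 at 260 and 146 CPM against 13850 and 14087 CPM. Of 19 lysosome genes 8 were lower. Immediate-early genes had a median of 2.10 and 5 of 13 were counted as higher. These 5 had 1 to 6 UMIs in cluster 8 and reached the minimum of 50 CPM only through cluster 3, so the filter favoured that direction here too. The share of UMIs of immediate-early genes was 0.100% and 0.101% in cluster 8, and Malat1 had 0 UMIs in 91 of its 105 cells. Ribosomal proteins took 16.7% and 19.3% in cluster 8. Low depth, scarce Malat1 and few immediate-early transcripts therefore occurred in both shallow clusters. The resident markers, which took part in the clustering, differed between them: Cd209f, Lyve1 and Mrc1 were found in 0 of 105 cluster 8 cells at 500 UMIs. By the floor of 3 counts this allows up to 2.86% of cells with a UMI (95% exact upper bound 3.45%), which is no limit on cells expressing the genes.

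Malat1 was then used to divide the 325 cells. In cluster 3, 274 cells had no Malat1 UMI, 33 had 1 and 18 had 2 or more, whereas 1 of 635 cells of cluster 0 had none. At 500 UMIs Malat1 was found in 9.54% of cluster 3 cells, 8.57% of cluster 8 cells and 99.5% of cluster 0 cells. In cluster 0 it took a median of 2.06% of the UMIs of a cell, with the fifth percentile at 0.678%. In cluster 3, 10 cells lay at or above that percentile, and the 10 cells with the most Malat1 held 252 of its 312 UMIs (80.8%). Cells with Malat1 made up 18.8%, 16.9%, 15.1% and 14.4% of the cluster in libraries 1-1, 1-2, 2-1 and 2-2. Their median depth was 928 UMIs beside 829 in cells without.

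Cells with Malat1 (51 cells, 51438 UMIs) were compared with cells without it (274 cells, 283566 UMIs) in the same replicate, with Malat1 removed. Of 851 genes tested, 11 rose (1.29%) and 0 fell (0%) at an adjusted p under 0.05 in the quasi-likelihood test of edgeR, with 49 higher and 23 lower at an unadjusted p under 0.05. Of 8 immediate-early genes tested, 6 rose and all 8 had a positive difference, with a median of 2.25 beside -0.0038 over all 851 genes. They were Dusp1, Zfp36, Fos, Klf2, Klf6 and Junb. Fos stood at 879 and 373 CPM in cells with Malat1 and at 178 and 43.8 CPM in cells without (log2 difference 2.56 ± 0.47, adjusted p = 0.0060 in edgeR, higher in 2 of 2 replicates). Dusp1, a phosphatase gene that shuts off MAP kinases, stood at 786 and 441 CPM against 79.2 and 71.2 CPM (2.91 ± 0.48, adjusted p = 0.0037 in edgeR, higher in 2 of 2). Ccnl1, a cyclin of RNA splicing, showed the smallest adjusted p in edgeR, 3.96e-05, at 185 and 305 CPM against 19.8 and 10.96 CPM. The others were the centromere histone gene Cenpa, Tm9sf2, Pdcd10 and Riok3, the last beyond the 10 that the rule names.

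These calls were few and did not hold under every setting. With cells thinned to 500 UMIs 0 of 445 genes passed in edgeR (18 higher and 6 lower at an unadjusted p under 0.05), without the haemoglobin-rich cell 0 of 834 passed (42 and 17), without library 1-2 0 of 377 passed (10 and 4), and with DESeq2 0 of 851 passed (8 and 1). Without library 2-2, 3 of 755 genes rose and 1 fell. Without the replicate as a block 2 rose. No gene among the first 10 changed direction in any of the 91 alternatives in which it could be tested. The adjusted p of edgeR or DESeq2 stayed under 0.05 in 38 of these and did not in 53. The 10 genes were picked by p-value in this same test and the alternatives reuse its cells, so a kept direction is no support. In shares of UMIs, immediate-early genes took 0.700% and 0.321% in cells with Malat1 and 0.179% and 0.112% in cells without, against 5.92% and 6.55% in cluster 0. At 500 UMIs the shares were 0.800% and 0.353% against 0.212% and 0.126%. By library they were 1.02% against 0.197% in 1-2, 0.237% against 0.092% in 2-1, 0.405% against 0.132% in 2-2, and 0.0929% against 0.126% in 1-1, where 6 cells had Malat1. The share was therefore higher with Malat1 in 3 of 4 libraries.

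**Figure D4:**
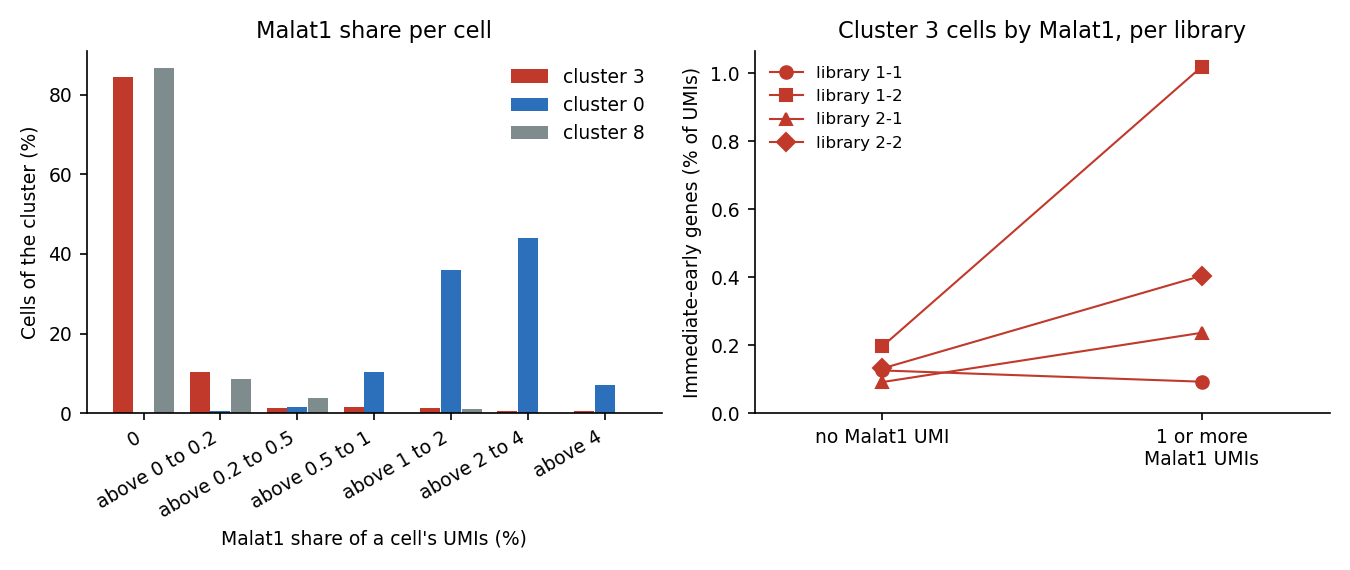
Left, percent of the cells of clusters 3, 0 and 8 by the share of Malat1 in a cell's UMIs; 84.3% of cluster 3 cells have none. Right, immediate-early genes as a percent of the UMIs of cluster 3 cells without and with Malat1, with 1 line per library, rising in 3 of 4 libraries to at most 1.02%.

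The 51 cells with Malat1 were not alike. Cells with 1 Malat1 UMI had 0.122% and 0.192% immediate-early UMIs in the replicates, close to cells with none, and cells with 2 or more (9 in each replicate) had 1.44% and 0.584%. Ribosomal proteins took 20.4% and 24.4% in cells with 1 Malat1 UMI, 21.1% and 23.8% in cells with none, and 13.3% and 16.4% in cells with 2 or more. Resident markers took 1.98% and 1.05% in cells with 2 or more, 2.10% and 1.10% with 1, and 1.21% and 1.19% with none. With only these 18 cells set against cells without Malat1, 1 of 800 genes rose and 0 fell in edgeR (63 higher and 60 lower at an unadjusted p under 0.05).

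Set beside cluster 0, which serves both sets of cells, immediate-early genes had a median log2 difference of -4.19 in cells with Malat1 and -5.38 in cells without, with all 18 lower in each. Heat shock genes had medians of -2.91 and -2.26. Ribosomal proteins had medians of 0.30 and 1.08, and respiratory genes 0.19 and 1.03. Resident markers had medians of -0.85 and -0.65. Over all genes measured the medians were -0.56 with Malat1 (3343 genes) and -0.19 without (3019 genes). Baseline and genes thus differ between both sets, and these paired medians do not compare the sets with each other. In the direct division by Malat1, heat shock genes had a median of 0.09 (7 genes) and resident markers of 0.26 (13 genes), with 0 called. The set with Malat1 rests on 51438 UMIs, so its genes near 50 CPM stand for 2 or 3 UMIs.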

How the data were processed

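Live aortic CD45+ cells were sequenced with 10x Genomics 3' chemistry and mapped to mm10 with Cell Ranger 3.0.2, per the labels' protocols, and Seurat 3.1.1 is named in the submitters' processing notes. The deposited table holds raw UMI counts of the authors for 18825 genes in 3002 cells that they kept as myeloid. The metadata deposited by the authors give cluster numbers, total counts and mitochondrial percent per cell, at most 9.99. For cell filters, doublets and clustering the sources used here give no settings, and no doublet caller was run. Depth ran from 1698585 to 5954716 UMIs per library, and 122885 and 212119 UMIs in cluster 3 of replicates 1 and 2. Intervals and floors cover counting error only.

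Counts were summed by cluster and biological replicate. The 9 macrophage and dendritic clusters (18 sums) were fitted with edgeR 4.0.16 (filterByExpr, TMM, quasi-likelihood, replicate as a block, 8 residual degrees of freedom). The block stands because the clusters of a replicate come from the same animals. The fit gave log2 differences with SE and no tests, since these genes formed the clusters. Per-replicate log2 differences used TMM-scaled CPM plus 5. Printed CPM are per total count. The division by Malat1 was tested with edgeR on 4 sums (2-sided, Benjamini-Hochberg), with Malat1 removed. It leaves 1 residual degree of freedom, so the spread rests on information shared over genes. The sources used here do not say whether the 2 libraries of a replicate hold different animals, so p-values measure the spread between these samples only. Thinning drew 500 UMIs per cell. The rule for genes apart, the fit of the sums and the test of the Malat1 division were tried on simulated counts with known differences. Alternatives were DESeq2 1.42.0, other scalings, filters, depth, cells and libraries. Named genes are the 4 markers, Malat1 and Neat1, the 10 highest and 10 lowest fitted differences against cluster 0 among genes apart by the rule, up to 4 members of each list by level, and up to 10 genes called in the Malat1 division. The members and lists were chosen with earlier results of these data known. Coordinates are from GENCODE M21 on GRCm38, where 18118 of 18825 symbols were found. 2 genes of the lists are not reported here by name.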

Additional observations from a re-analysis of the deposited data

Results flagged for a closer look

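Among 90 values of cluster 3 compared over the 4 libraries, 8 had a library far from the other 3, where chance gives about 1 in 20. Library 1-1, which gave 32 cells of the cluster, held 4 of the 8. Its resident markers took 1.85% of UMIs beside 1.16% to 1.19% in the others, its chemokine ligands 1.498% beside 0.974% to 1.05%, its C4b level was 213 CPM beside 345 to 370 CPM, and its Stmn1 level was 91.1 CPM beside 311 to 352 CPM. Library 1-2 stood apart in erythroid genes, at 3.82% of UMIs beside at most 0.0152%, and in Hba-a1, at 4246 CPM beside at most 91.1 CPM; the haemoglobin-rich cell is in this library. C-type lectins took 0.359% of UMIs in library 2-2 beside 0.322% to 0.325%. Tnf read 9.25 CPM in library 2-2, its 1 UMI, and 0 in the others.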

How the results depend on the processing

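Genes higher than in cluster 0 (157) numbered 70 with DESeq2 size factors, 41 among cells of at least 1000 UMIs, 49 with only cells holding Malat1, 11 with 2-fold in each of the 4 libraries, 450 by edgeR adjusted p and 69 to 117 leaving out each library. Genes lower (616) numbered 1048 at 20 CPM, 337 at 100 CPM, 966 by edgeR, and 638 to 710 leaving out each library. Against cluster 8 the higher genes (476) numbered 1057 at 20 CPM, 226 at 100 CPM, 289 in each of 4 libraries, and 391 to 598 leaving out each library. The lower genes (129) numbered 401 with only Malat1 cells, 82 at 100 CPM, 44 in each of 4 libraries, and 110 to 169 leaving out each library.

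Genes called higher with Malat1 (11) numbered 0 with cells thinned, with DESeq2, with 4 libraries as samples and without the haemoglobin-rich cell, 1 for at least 2 Malat1 UMIs, 6 with DESeq2 size factors, 2 with no replicate block, 4 (and 134 lower) with every gene of at least 1 count, and 0 to 9 leaving out each library. Lower calls (0) were 1 with Malat1 read among 500 UMIs and 0 to 1 leaving out each library. The causes were not tested.

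Reversed against cluster 0 were Stmn1 (-0.90), Top2a (-0.93), Gngt2 (-0.27) and Hba-a1 (-0.22; fitted -2.34) with only Malat1 cells, Hba-a1 without the haemoglobin-rich cell (-0.64; fitted -2.58) or library 1-2 (-1.77; fitted -4.69), and Fabp5 without library 1-2 (-0.17). Leaving out each library gave -1.77 to 5.41 for Hba-a1 (fitted -4.69 to 10.96) and -0.17 to 2.73 for Fabp5. The nuclear RNAs against cluster 8 read -0.48 (2 genes) at 1000 UMIs and -6.01 (1 gene) in cells without Malat1. With no replicate block, none of the 63 named genes' fitted differences against cluster 0 reversed. With 335004 UMIs, 3 counts in cluster 3 are 8.96 CPM, so lower levels were not resolved.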
